A study of Mus musculus with 18 samples.

Results

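Cytosolic ribosomal protein genes encode the proteins that, with ribosomal RNA, make up the small and the large subunit of the ribosome. On the arrays they were represented by 87 genes with 97 probes, out of 34304 gene names and 37246 probes. A member was any probe whose transcript accession RefSeq assigns to a protein-coding mouse gene with a symbol that begins Rpl or Rps and a number, or to Rpsa, Rplp0, Rplp1, Rplp2 or Fau, with the Rps6k kinases left out. Of the 87 genes, 52 belonged to the large subunit and 33 to the small subunit. The remaining 2 met the symbol rule and are no subunits of the standard ribosome: Rps19bp1, which encodes a binding partner of the small subunit protein Rps19, and Rps23rg1, a retrogene. RefSeq lists 92 genes that meet the rule, and Rpl10l, Rpl31-ps12, Rpl34-ps1, Rpl37rt and Rps27rt had no probe.

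Mouse embryonic stem (ES) cells were kept with the cytokine LIF on gelatin, without a feeder layer. Isogenic differentiated (ED) cells were grown from them in medium without LIF. Both were profiled without treatment and after ionizing radiation (IR) at 10 Gy, collected early, at 15 min (ESRE and EDRE), or late, at 4 h (ESRL and EDRL), with 3 arrays in each of the 6 groups and 18 in all. The sources do not say whether the 3 samples of a group were separate cultures, so p-values measure the spread between these samples, and in bulk RNA fewer cells of a type and less RNA per cell cannot be told apart. Of 10 stem cell markers, all 10 were well above background on every ES array and 7 on every ED array. The 6 that were usable on all ES and ED arrays summed to 492 to 509 in ES and 17.4 to 23.0 in ED cells, in units of the array 75th percentile. Sox2 read 4.68 in ES and 2.32 in ED cells, and Klf4 3.84 and 3.89. The 7 fibroblast and mesenchyme markers usable on all these arrays summed to 2.13 to 2.29 in ES and 148 to 179 in ED cells, while Thy1, of the same list, read 1.16 in ES cells and was above background on no ED array. All 10 of that list were above background on every ES array, and Fn1 had no usable ES value.

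Every living cell needs these proteins in nearly equal numbers, and cells coordinate most of the genes through a shared control of translation: the messages begin with a run of pyrimidines at the cap, the TOP motif, which mTOR signalling and Larp1 read. A few members are bound to other tasks. Rplp0, Rplp1, Rplp2 and Rpl12 form or carry the stalk that recruits elongation factors. Rpl5 and Rpl11 form a particle with 5S ribosomal RNA that can bind Mdm2, the ligase that degrades p53, when ribosome assembly is disturbed. Rps27a and Fau are made as fusions to ubiquitin or a ubiquitin-like protein. Several members have paralogs, among them Rpl39l, known from the male germ line, and Rpl3l, known from striated muscle.

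Promoters of 67 member genes were in the RefSeq table used here (GRCm38.p6, 79 entries). A window of 30 bases, 15 before and 15 from the annotated first base on the strand of the gene, was searched for its longest unbroken run of C or T. A run of 7 or more bases was present in 48.1% of member entries, compared with 18.6% of all 32851 entries of the table, and it covered the first base in 25.3% and 4.9%. The shares were close in both subunits, 48.9% of 47 large subunit entries and 46.7% of 30 small subunit entries. Such a run can lie anywhere in the window and is not by itself a TOP motif. A C at the first base followed by 4 pyrimidines was present in 19% of member entries and 2.51% of all entries. The windows below are those of 3 genes that passed the test in irradiated ES cells and of both paralogs with the largest falls in ED cells. Capitals mark the longest run of C or T, and for a gene with several entries the one with the longest run is shown.
Rpl12, chr2:32961697-32961726, plus strand: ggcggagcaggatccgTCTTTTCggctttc
Rpl34, chr3:130730323-130730352, minus strand: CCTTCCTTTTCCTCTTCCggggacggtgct
Rpl35a, chr16:33056467-33056496, plus strand: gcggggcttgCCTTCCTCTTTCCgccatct
Rpl39l, chr16:10170213-10170242, plus strand: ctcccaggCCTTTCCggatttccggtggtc
Rpl3l, chr17:24727811-24727840, plus strand: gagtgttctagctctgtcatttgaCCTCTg
The run was 18 bases in Rpl34 and 13 in Rpl35a, in both cases over the first base, and 7 in Rpl12, where it began just after it. In Rpl39l the run of 7 lay before the first base, and Rpl3l held no run longer than 5.

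Values are log2 of the scanner's processed signal minus the log2 of the 75th percentile of the array, so a value of 0 is a signal at that percentile. Because probes differ in how well they bind, levels are compared between samples and never between genes. Among the 87 genes, each represented by 1 probe, 81 were well above background on all 18 arrays, 5 on some and 1 on none. Rpsa, a small subunit protein that also binds laminin, passed on 3 arrays that did not fall in 1 group. Abundant messages reached the top of the scanner's range: 13 members had at least 1 saturated spot, up to 12 member probes on an array (ESRE replicate 3), and none on the ES arrays.

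The arrays differed in ways that touch these genes. The scanner software marks spots as outliers, and those values were not used. On EDRE replicates 2 and 3 it marked 66 and 58 of the 97 member probes, against 1 to 13 on the other 16 arrays, and their 75th percentile signals were 875 and 1155, against 1952 to 4268 elsewhere. ES arrays lost 11, 13 and 11 member probes. Rpl11, Rpl7, Rpl36al, Rpl31, Rpl7l1 and Rps23 had no usable ES value, so none of them entered a comparison with ES. The headers give 6 scan times. All ES arrays shared 1 of them with no other group, and no scan time held an irradiated group together with its own control, so within a scan no treatment could be compared with its control.

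**Figure D1:**
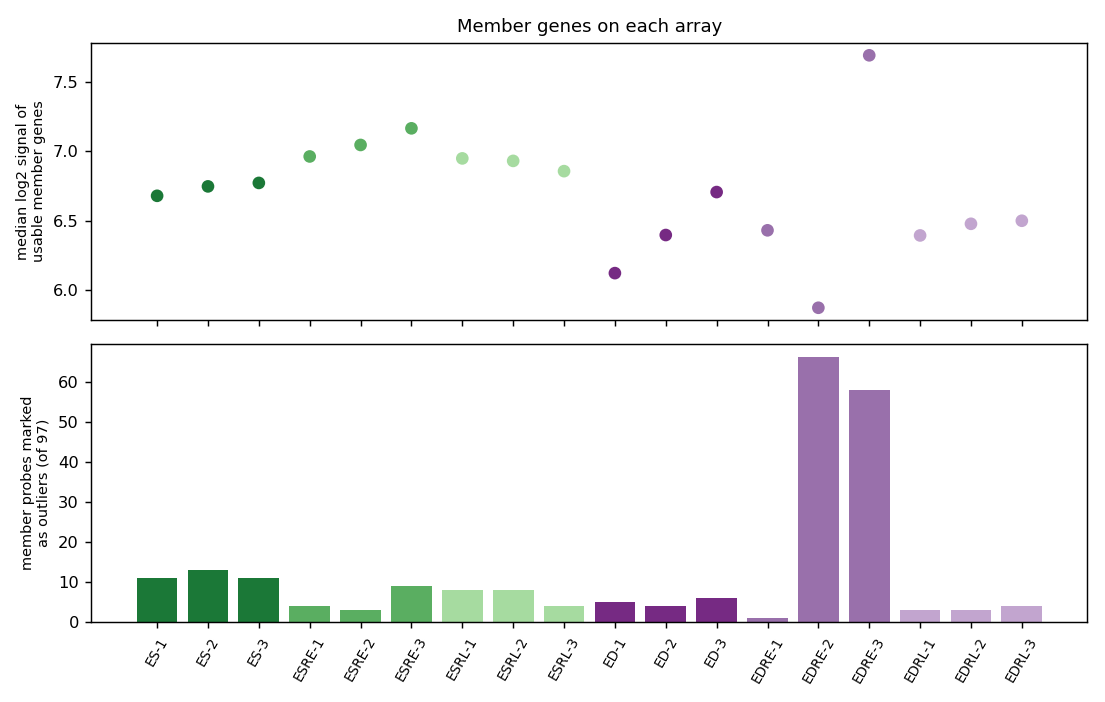
Median log2 signal of the usable member genes on each of the 18 arrays (top, relative to the array 75th percentile) and the number of the 97 member probes that the scanner software marked as outliers (bottom); colours stand for the 6 groups. Medians lie between 6.68 and 6.77 on the ES arrays and between 6.86 and 7.17 on the irradiated ES arrays, and EDRE replicates 2 and 3 stand apart with 66 and 58 outlier marks.

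The first question was how ES and ED cells differ before irradiation. Most ribosomal protein genes were not called, while the paralogs Rpl39l and Rpl3l were far lower in ED cells. A gene is called here where limma's adjusted p was under 0.05 and the log2 change over 1 in size. Of 78 members tested, 2 were higher in ED cells (over all genes tested, 14.7% were) and 8 were lower (26.3%). At any size of change, 4 were higher (19.1% of all genes) and 17 lower (31.6%). The interquartile range of the members' changes was 0.374 on the log2 scale and that of all genes 1.77, a ratio of 4.75 that a shift of whole arrays does not move.

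Rpl39l, an autosomal copy of the X-linked Rpl39, had the largest fall. Its values were −2.69, −2.32 and −2.41 on the ES arrays, and −9.21, −9.64 and −9.57 on the ED arrays, where it was not well above background on any array. The groups were far apart. Set against the lowest signal that counted as above background, it was at least 31.3-fold higher in ES cells (adjusted p = 4.81e-08). It was above background on all 9 arrays of ES, ESRE and ESRL and on none of the 9 ED-type arrays. Rpl39, its standard partner, read 6.77, 6.79 and 6.83 in ES cells and 6.53, 6.62 and 6.83 in ED cells, which overlap (log2 change −0.14, SE 0.13, adjusted p = 0.409).

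Rpl3l followed the same pattern, with −1.45, −1.42 and −1.48 in ES cells and −5.00, −4.63 and −4.80 in ED cells, 10.3-fold lower (adjusted p = 3.18e-06). Rpl3, the standard protein near the catalytic centre, was at 7.23, 7.30 and 7.60 in ES cells and 7.02, 7.19 and 7.99 in ED cells, and the groups overlapped. Rpl32l, a copy of Rpl32, fell from between −2.90 and −2.21 to between −4.01 and −3.93 (log2 change −1.45, adjusted p = 7.81e-05). Its change was under the size limit with arrays scaled to their medians (−0.81, adjusted p = 0.0116) and with quantile normalization (−0.97, adjusted p = 0.00281). Whether its probe also binds Rpl32 was not tested. Rps23rg1 was also lower, by a log2 change of −1.99 (adjusted p = 1.77e-04), but 2 of its 3 ED arrays were not well above background, and the call was lost with quantile normalization (−0.96) and normexp (−0.81, adjusted p = 0.253).

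Other paralogs were not called. Rps27l, a p53 target and copy of Rps27, was at 5.80, 5.77 and 5.86 in ES cells and 5.39, 5.32 and 5.60 in ED cells (log2 change −0.37, adjusted p = 0.0872). Rpl22l1, a copy of Rpl22, changed by −0.16 (adjusted p = 0.436). Of the 7 standard partners tested, none was called. Rps4l was chosen for the paralog list with earlier results known and RefSeq lists it as a transcribed pseudogene, so it is no member. It was at 5.39, 5.33 and 5.35 on the ES arrays and not above background on the ED arrays, at least 7120-fold higher in ES cells (adjusted p = 9.56e-14).

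**Figure D2:**
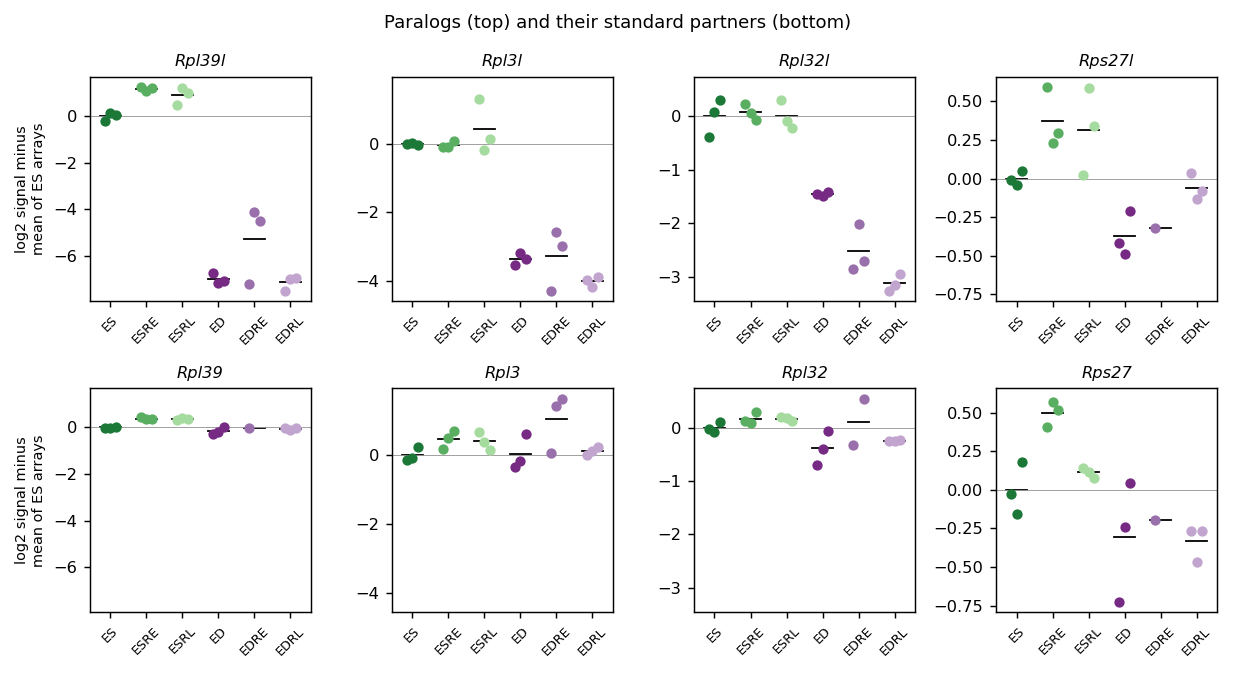
Log2 signal of 4 paralogs (top row) and their standard partners (bottom row) minus the mean of the ES arrays, by group; points are arrays, lines group means, and both panels of a column share an axis. Rpl39l and Rpl3l lie far lower on the ED-type arrays than on the ES-type arrays, while Rpl39 and Rpl3 overlap between ES and ED.

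Among the standard proteins, Rpl12 rose most in ED cells. It was at 4.67 and 5.08 on both usable ES arrays and at 6.08, 6.35 and 6.58 on the ED arrays, 2.76-fold higher (adjusted p = 0.00232). Rpl37 was the other gene called higher, from −4.88, −4.73 and −4.93 to −4.10, −3.58 and −3.45 (2.2-fold, adjusted p = 0.00468). Its call was lost with normexp (log2 change 0.72, adjusted p = 0.126). Rps3a1, a small subunit protein, fell from 2.66 and 3.45 on both usable ES arrays to 1.62, 1.81 and 1.41 (log2 change −1.44, adjusted p = 0.00265). Rpl24, Rpl4 and Rpl6, large subunit proteins named after their values were seen, had log2 changes of −1.11, −1.07 and −1.02, and in each the groups did not overlap. The call of Rpl24 was lost whenever an ES or ED array was left out (adjusted p up to 0.11). That of Rpl6 was kept in 4 of these 6 fits and that of Rpl4 in all of them. With arrays scaled to their own medians, Rps3a1 (−0.81, adjusted p = 0.105) and Rpl24 (−0.47, adjusted p = 0.325) lost their calls. So did Rpl4 (−0.43, adjusted p = 0.0687) and Rpl6 (−0.38, adjusted p = 0.0914).

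The count above depends on how arrays are scaled. When arrays were scaled to their own medians instead, 8 members were called higher (over all genes 26.3%) and 3 lower (18.2%). The members' median change was then 0.41, not −0.24, as the median of all genes moved from −0.19 to 0.46. In both settings the members' median lay within 0.1 of that of all genes, but under quantile normalization the medians were −0.15 and 0.24. The shift between the 75th percentile and the array median is common to all genes, and with it 9 of the 21 members past the adjusted p at any size changed sign, Rpl5 and Rpl26 among them. Rpl39l and Rpl3l were called lower under every alternative that gave them a value. With scan time as a random block they were the 2 members still called (adjusted p = 2.37e-05 and 0.00175). In that setting 7.7% of all genes were called higher and 12.7% lower.

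**Figure D3:**
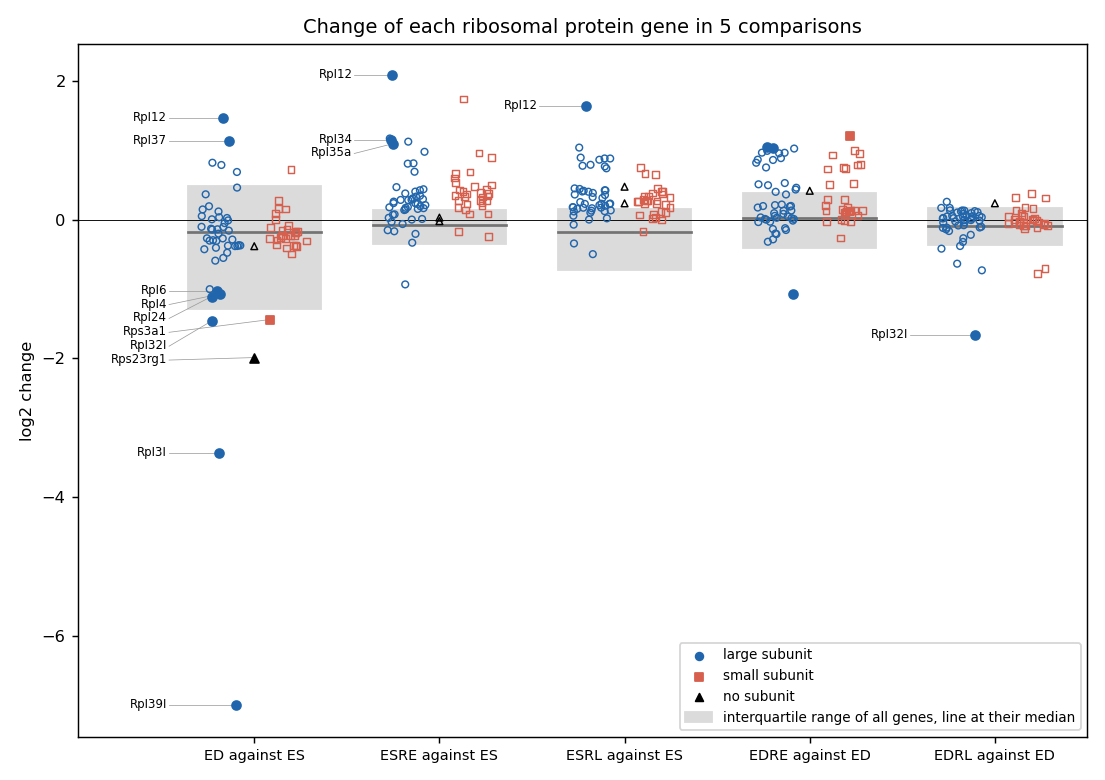
Log2 change of each tested member gene in 5 comparisons of 2 groups; circles are large subunit genes, squares small subunit genes, triangles the genes that are no subunits, and filled points, named except in EDRE against ED, passed the adjusted p and the size limit. Grey boxes span the interquartile range of all genes, with a line at their median; in ED against ES most members lie inside the box, with Rpl39l at a measured −7.00 (not above background in ED) and Rpl3l at −3.36 far below it.

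Genes that make or regulate ribosomes were taken from lists and are given by their counts, beside the 14.7% of all genes called higher and the 26.3% called lower. Of 10 tested genes of RNA polymerase I and its factors, which make ribosomal RNA, 6 were lower in ED cells (60%) and none higher, with a median change of −1.21. Polr1e, a subunit of that polymerase, had a log2 change of −2.18 (adjusted p = 6.43e-07) and Rrn3, its initiation factor, is counted among the 6 with 1 usable ES array, so that its spread was taken from other arrays. Of 35 genes of ribosome assembly and rRNA processing, 11 were lower (31.4%, near the share of all genes) and none higher, with a median of −0.65. Rrp12, an export factor of pre-ribosomes, changed by −2.14 (adjusted p = 4.44e-08) and Heatr1 by −1.78 (adjusted p = 4.03e-05). Among 15 Myc and mTOR regulators 3 were lower (20%, below that share), and none higher. Mycl, with all arrays above background, changed by −4.78, and Mycn is counted with 1 usable ES array and 1 of 3 ED arrays above background. Of 18 elongation factors and other TOP genes, 2 were higher (11.1%), Vim (2.67) and Eif3e (1.00), and none lower, with a median of −0.07. Over all genes the median was −0.19.

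The second question was the response of ES cells to IR. Here most members had a small positive change, and a few passed the test, led by Rpl12. At 15 min, 3 of 79 members were called higher (over all genes 0.274%) and none lower (0.169%). At any size 5 were higher (0.349%) and none lower (0.192%). The change was positive in 69 of the 79, with a median of 0.28 while that of all genes was −0.08. Of 63 members with 3 usable arrays in both groups, 41 had every ESRE array above every ES array and 3 the reverse, and groups did not overlap in 34.8% of all genes.

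Rpl12 rose 4.22-fold at 15 min, from 4.67 and 5.08 to 7.04, 6.72 and 7.09 (adjusted p = 0.0194). ES replicate 2 was not usable for it. Rpl34 went from 4.84, 5.01 and 5.14 to 6.27, 6.02 and 6.17 (log2 change 1.15, SE 0.17, adjusted p = 0.0109), and its other probe gave a change of 1.15 that missed the call. Rpl35a, the protein whose human gene is mutated in some patients with Diamond-Blackfan anaemia, was at 5.72, 6.06 and 6.27 and then at 7.18, 6.96 and 7.19, and all 3 of its probes passed, with changes of 1.10 to 1.38. In all of these the groups were separate. The 3 probes of Rpl35a were read on the same arrays. By the probe that stands for it, its call was lost whenever an ES or ESRE array was left out (adjusted p up to 0.126). That of Rpl34 was kept in 3 of these 6 fits. Rpl19 and Rplp1, a stalk protein, passed at a smaller size, with changes of 0.98 (adjusted p = 0.0393) and 0.69 (adjusted p = 0.0328).

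Other members of the named lists gave values without a call. Rps27a was at 5.75, 6.14 and 6.38 before and 6.98, 7.10 and 7.06 after (adjusted p = 0.0596), while its other probe was called, with a change of 1.10 (adjusted p = 0.0408). Rpl39l, already high in ES cells, had a change of 1.17 with no overlap (adjusted p = 0.536). Rps25 read −3.65, −3.65 and −3.20 before IR and −1.68 and −1.84 on both usable ESRE arrays (adjusted p = 0.693). The p-values of Rpl39l and Rps25 rest on a spread shared by all 6 groups. On the EDRE arrays Rpl39l read −9.68, −6.59 and −6.99, and Rps25 −1.99, −6.59 and −4.58. With only ES and ESRE in the fit, 6 members were called higher (1.17% of all genes). These were all the members with a log2 change over 1, Rpl39l and Rps25 among them. Of 8 genes that the study itself listed, which is no independent evidence since they came from these samples, 3 of 7 tested were called higher. Among 11 tested proteins of the 5S particle or with reported Mdm2 binding, none was called by the probe that stands for it. Rps25, Rps26 and Rps27a belong to that list, whose median change was 0.33, against −0.08 over all genes. Rpl5 changed by 0.15 (adjusted p = 0.876), Rpl26 by 0.22 and Rps27l by 0.37. Rplp0, the base of the stalk, was at 2.14, 2.04 and 2.31 before and 2.29, 2.27 and 1.94 after.

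At 4 h, Rpl12 alone was called higher among 77 members (over all genes 0.66%) and none lower (6.73%). It read 5.77, 6.93 and 6.84, with ESRL replicate 1 well below the other two but still above both ES arrays, a 3.12-fold rise (adjusted p = 0.0108). At any size 6 were higher (1.66%) and none lower (7.5%). Besides Rpl12 these were Rpl36a (0.88), Rpl35a (0.88), Rpl34 (0.86, adjusted p = 0.00813), Rpl19 (0.78) and Rps27a (0.76). The change was positive in 72 of 77 members with a median of 0.27, against −0.18 over all genes, and 25 of 64 lay wholly above their ES arrays and 1 below (34.4% of all genes did not overlap). ESRL replicate 1 had the lowest signal of the ES-type arrays. Both time points share the same ES arrays, so a value that is low in ES raises both changes.

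**Figure D4:**
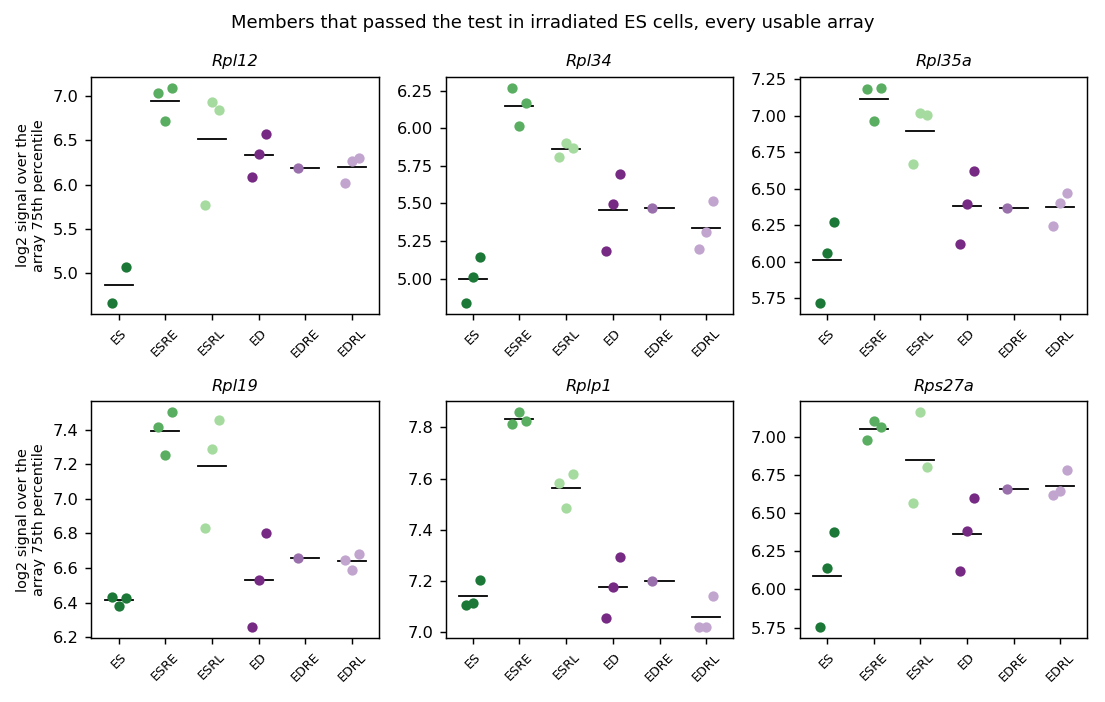
Log2 signal relative to the array 75th percentile for 6 members that passed the adjusted p in irradiated ES cells, at 15 min or 4 h. Rpl36a, which also passed at 4 h, is not shown. Points are usable arrays and lines group means. In Rpl12 and Rpl34 the ES arrays lie below every other array, and in each of the 6 genes the ESRE arrays lie above the ES arrays.

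For 4 members, Rpl12, Rpl30, Rpl34 and Rps26, the usable ES arrays lay below every usable array of the other 5 groups, out of 76 members with at least 2 usable ES values (5.26%, and 1.28% of all genes by the same rule). Among genes above background on all arrays the shares were 5.71% and 2.83%. Rpl30 and Rps26 were accordingly 0.79 and 0.73 higher in ED than in ES cells (adjusted p = 0.106 and 0.0122). The ES arrays also stand alone in their scan time. With scan time as a random block, where the estimated correlation within a scan was 0.81, no member was called in ESRE or ESRL against ES. In that setting 0% of all genes were called in both comparisons, so the lost calls are not particular to the members. The part of scan time in these rises was not tested further. The members' median at 15 min was 0.36 under median scaling and 0.03 under quantile normalization, and the 4 h median 0.57 and 0.11. Rpl12 was called at both times under either of these scalings. Without ES replicate 1 no member was called at either time, and without ESRE replicate 1 none was called at 15 min. With an array of its 2 groups left out, Rpl12 had an adjusted p up to 0.178 at 15 min and 0.0921 at 4 h. It kept its call in 2 of these 6 fits at 15 min and in 5 of 6 at 4 h. With only ES and ESRL in the fit, Rpl12 was not called (adjusted p = 0.133).

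**Figure D5:**
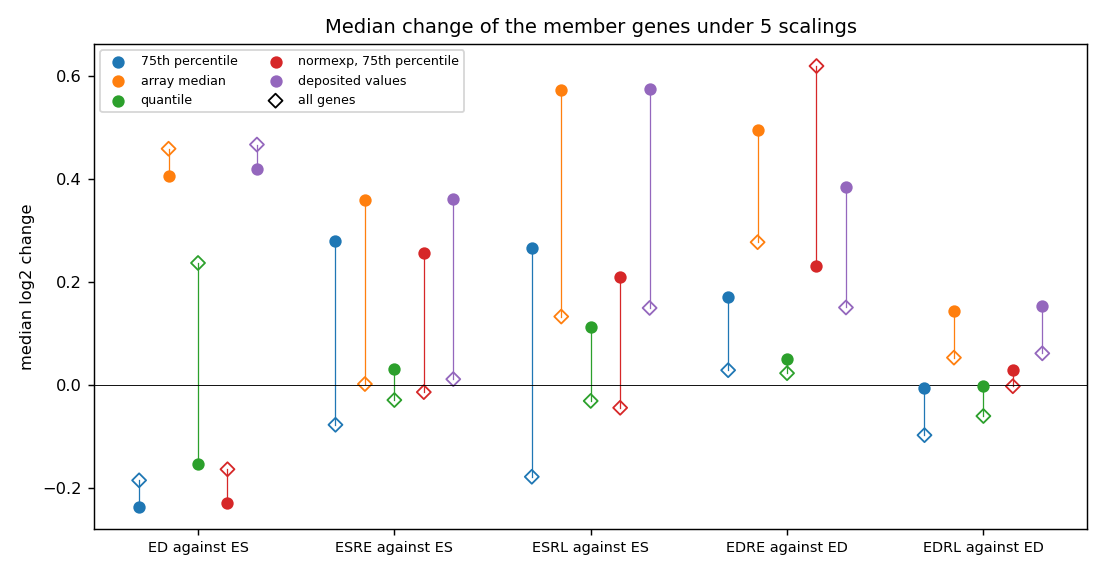
Median log2 change of the member genes (filled circles) and of all genes (open diamonds) in 5 comparisons under 5 ways of scaling the arrays. In ED against ES both medians change sign together between the 75th percentile and the array median, while in ESRE and ESRL against ES the members stay above all genes under each scaling.

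The third question was the response of ED cells. Of 79 members tested at 4 h, none was called higher (over all genes 1.34%) and 1 lower (0.246%), the median change was −0.01 and the interquartile range was 0.155, against 0.527 over all genes. The standard proteins that rose in ES cells were not called here. Rpl12 read 6.01, 6.26 and 6.30 in EDRL cells and changed by −0.14 (adjusted p = 0.884), Rpl34 by −0.12 and Rpl35a by −0.01. The exception was Rpl32l. It fell from −3.96, −4.01 and −3.93 in ED cells to −5.78, −5.67 and −5.47 (log2 change −1.67, SE 0.23, adjusted p = 7.02e-04), with no overlap and above background on all 6 arrays. The call was lost with normexp (−1.04, adjusted p = 0.428) and with scan time as a random block (adjusted p = 0.737). With that block 0.138% of all genes were called higher and 0% lower. Rps27l, the p53 target, was at 5.85, 5.68 and 5.73, above all 3 ED arrays (log2 change 0.31, adjusted p = 0.448).

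At 15 min, 49 of the 87 members had 1 usable EDRE value, from replicate 1 in each case. Of 80 members tested, 3 were called higher (over all genes 2.14%), Rpl8 and Rpl29 among them, and 1 lower (2.8%), Rpl32l. Rpl8, a large subunit protein, was at 7.20, 7.34 and 7.54 in ED cells and at 7.58, 9.05 and 8.60 in EDRE cells. Rpl29 read 7.13, 7.21 and 7.39 in ED cells and showed the same split, with 7.38 on EDRE replicate 1 and 9.01 and 8.41 on the others. The changes were 2.07-fold (adjusted p = 0.0348) and 2.04-fold (adjusted p = 0.0418). In both genes the high values were on the 2 arrays with low signal. Without both arrays the members' median was 0.07, no member was called higher and Rpl32l had a log2 change of −1.40 (adjusted p = 0.0189). That leaves 1 EDRE array, whose spread is assumed to be that of the other groups. Rpl32l was not well above background on those 2 arrays. Without EDRE replicate 1, 20 of 32 testable members were called higher (18% of all genes) and the median was 1.19, against 0.18 over all genes. Rpl12 had 1 usable EDRE value, 6.18, within the range of the ED arrays.

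Whether ES and ED cells responded differently was tested as an interaction. At 15 min none of 78 members was called (over all genes 1.99%), with 9 at an unadjusted p under 0.05. The largest difference was that of Rpl12, 2.23, followed among the genes above by Rpl34 with 1.14 and Rpl35a with 1.11. Each of these genes had 1 usable EDRE value, from replicate 1, so its spread there was taken from other arrays. At 4 h 1 of 77 was called (1.1%): Rpl32l, with a difference of 1.67 (adjusted p = 0.0238). It read −2.21, −2.60 and −2.73 in ESRL cells, overlapping the ES arrays. Rpl12 and Rpl34 had differences of 1.78 (adjusted p = 0.0857) and 0.98 (adjusted p = 0.0733) at 4 h.

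Median changes of large and small subunit genes, given as a description, were −0.24 and −0.23 in ED against ES, 0.24 and 0.35 at 15 min in ES cells, 0.24 and 0.27 at 4 h, 0.18 and 0.15 at 15 min in ED cells, and 0.02 and −0.03 at 4 h. In ED against ES, 8 of 46 large subunit members tested were called (17.4%), the paralogs Rpl39l, Rpl3l and Rpl32l among them. Of 30 small subunit members 1 was called (3.33%), Rps3a1, and Rps23rg1 was the remaining call. Over all genes 40.9% were called in either direction, more than in either subunit. All 3 called at 15 min in ES cells were of the large subunit (6.52% of its 46 tested, against 0.443% of all genes in either direction). The probes of the 7 genes with several tested differed by at most 0.20 in ED against ES and by at most 0.28 at 15 min in ES cells. In that second comparison Rpl34, Rps27a and Rpl19 had 1 probe called higher and 1 not, and in no other comparison of 2 groups did calls differ between probes.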

How the data were processed

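Total RNA of 18 samples was labelled with Cy3 and hybridized to 1-colour Agilent arrays, 1 array per sample. The deposited scanner files give intensities, with spot flags, from Feature Extraction, version 10.7.3.1 in the file headers and 9.1 in the submitters' processing notes. A deposited table gives log2 values of the authors for the same arrays, with unstated scaling. Its columns had medians of 0.572 to 0.72 and correlated with the scanner values at 0.998 or more. The array number limits the precision.

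The processed signal was log2 transformed, the array 75th percentile subtracted, and control and outlier spots left out. A probe was tested where well above background on all 3 arrays of a compared group, judged by at least 50% of its spots. limma 3.58.1 in R 4.3.3 fitted all 6 groups, with Benjamini-Hochberg adjustment over all probes tested, 24490 to 28636 in the 5 comparisons of 2 groups. Of several probes per gene, the one usable on most arrays stood for it, ties going to the higher level. Genes were named through RefSeq accessions (22201 of 37246 probes matched); other probes kept the array's name. In simulated data the test recovered 85% of changes of 3 and 54% of changes of 1.5 (log2) in ESRE against ES.

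Genes named were the 5 largest called changes per direction and comparison, those of the paralog, partner, stalk, 5S, Mdm2 and study lists, members never above background, and at most 2 per direction from other lists. Some of these genes are not reported here. Members and lists were chosen with earlier results of these data known. Alternatives covered scaling, background (normexp, on median signals since mean signals were not in the files), filters, flags, tests, blocks and left-out arrays. The array's build differs from that of the RefSeq table, so positions are given for promoter windows only.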

Additional observations from a re-analysis of the deposited data

Results flagged for a closer look

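Rpl32l was singled out because its change after IR differed between ES and ED cells at 4 h by the interaction test, with a difference of 1.67 on the log2 scale (adjusted p = 0.0238, limma). It fell in all 3 EDRL arrays against all 3 ED arrays and overlapped between ESRL and ES. The call was lost with the replicate block (adjusted p = 0.0519), with scan time as a random block (adjusted p = 1) and with normexp (1.00, adjusted p = 1). Over all genes 0% were called with the scan time block, and 0.00769% higher and 0.0577% lower with normexp. The difference was called in 11 of 14 other settings and in 11 of 18 fits that each left out 1 array, with adjusted p up to 0.0778 when an array of the 4 groups involved was left out.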

How the results depend on the processing

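Counts of called members run from ED, ESRE, ESRL, EDRE and EDRL against their controls to the interactions at 15 min and 4 h, and were 10, 3, 1, 4, 1, 0 and 1. With the array median these were 11 (8 higher), 5, 7, 13, 1, 1 and 2. Over all genes 26.3% were then higher and 18.2% lower in ED, and 0.439% and 0.192% in ESRE. The shares were 2.06% and 3.97% in ESRL, 5.86% and 2.25% in EDRE, and 1.71% and 0.125% in EDRL. At the interactions they were 0.648% and 1.87%, and 0.246% and 0.542%. The medians of ED, ESRE, ESRL and EDRL were 0.4059, 0.3583, 0.5722 and 0.1433. The deposited values gave 10 (7 higher), 2, 5, 14, 1, 2 and 1, with medians of 0.4191, 0.3611, 0.5742 and 0.1528. Over all genes 26.2% were higher and 17.9% lower in ED, and 0.291% and 0.164% in ESRE. The shares were 1.73% and 3.33% in ESRL, 6.63% and 2.84% in EDRE, and 1.62% and 0.0915% in EDRL. At the interactions they were 0.834% and 1.78%, and 0.137% and 0.487%. Quantile normalization gave 6 in ED, 1 in ESRE and 0 in EDRE, with medians of 0.03084 in ESRE and 0.1121 in ESRL. Of all genes, 21.4% were higher and 20% lower in ED, 0.474% and 0.184% in ESRE, and 1.53% and 3.46% in EDRE. Normexp gave 5 in ESRE, 0 in EDRL and 0 for the 4 h interaction, a median of 0.2087 in ESRL, and turned Rpl32l in EDRE to 0.2807. Of all genes, 0.22% were higher and 0.0274% lower in ESRE, 0.56% and 0.0345% in EDRL, and 0.00769% and 0.0577% at that interaction. With outlier spots kept, EDRE had 7 (4 lower) and the 15 min interaction 5. Of all genes, 2.79% were then higher and 4.26% lower in EDRE, and 1.18% and 1.27% at the 15 min interaction. Background in both groups gave 2 at that interaction (over all genes 0.871% higher and 0.971% lower).

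Scan time as a random block left 2, 0, 0, 0, 0, 0 and 0. Over all genes it called 7.7% higher and 12.7% lower in ED, 0.138% higher in EDRL, and 0% in each of the others. The replicate block gave 9, 3, 1, 3, 1, 0 and 0, so it ended the 4 h interaction and no other count moved by over 1.5 times. Numbers did not pair the samples: correlations of same-numbered deviations ran from −0.393 to 0.297. Fitting only the groups compared gave 6 in ESRE, 0 in ESRL, 0 in EDRE and 1 at the 15 min interaction. Over all genes 1.17% were higher and 0.784% lower in ESRE, 0.335% and 1.22% in ESRL, 0% in EDRE, and 1.16% either way at that interaction. The methods' t-test, which has no interaction, gave 0 in ESRL and in EDRE after adjustment, and 32, 46, 24 and 8 in ED, ESRE, ESRL and EDRL at unadjusted p under 0.05, added after seeing the data. Any size gave 21, 5, 6 and 8 in ED, ESRE, ESRL and EDRE. A log2 change over 1 with no test gave 6 in ESRE, 2 in ESRL and 8 for each interaction. Over all genes 1.66% were higher and 3.82% lower in ESRE, and 1.55% and 16.6% in ESRL. At the interactions the shares were 7.41% and 16.9% at 15 min, and 3.87% and 16.6% at 4 h. Any probe of a gene gave 5 in ESRE and 1 at the 15 min interaction. Without paralogs and the 2 genes that are no subunits, ED had 6, and EDRL and the 4 h interaction 0. Without both EDRE arrays of low signal, added after seeing the data, ESRE had 5, EDRE 1, lower, and the 4 h interaction 2.

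Leaving out 1 array gave 8 to 10 in ED, 0 to 4 in ESRE, 0 to 2 in ESRL, 0 to 20 in EDRE, 1 in EDRL each time, 0 to 16 at the 15 min and 0 to 2 at the 4 h interaction, and EDRE medians of 0.07522 to 1.192. EDRE had 1 lower without EDRE replicate 2 and 0 without replicate 3, 20 without replicate 1, 0 without any 1 ED array, and 2 without ES replicate 2 or 3 or EDRL replicate 2 or 3. ESRL had 0 without ES replicate 1, 2 without ES replicate 3, and ESRE 0 without ES replicate 1 or ESRE replicate 1 and 1 without ES replicate 2 or 3 or ESRE replicate 3. The 15 min interaction had 16 without EDRE replicate 1 and 1 without EDRE replicate 2 or ESRL replicate 1 or 2. Without EDRE replicate 1, 6.98% of all genes were higher and 21.6% lower at that interaction, and 18% and 13.1% in EDRE. The 4 h interaction had 0 without ES replicate 1 or 2, any ED array, or EDRL replicate 1 or 2, and 2 without ESRL replicate 1 or EDRE replicate 1. Causes were not tested. All other counts stayed within 1.5 times. Saturated probes in the brightest members bound their highest values from below.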
